A study of Mus musculus with 15 samples.

Results

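The immediate early genes described here are Fos, Fosb, Jun, Junb, Jund, Egr1, Ier2, Atf3, Nr4a1 and Dusp1, which were taken by name, without a threshold on their measured values but with earlier results of these data known. All 10 had a row in each of the 15 deposited tables, among the 27803 genes that the tables list in all. They were followed by marker-defined cell type, by condition and by animal, with the mouse as the replicate.

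Immediate early genes are transcribed within minutes of a signal from transcription factors that are already present in the cell, without new protein synthesis. Growth factors, depolarisation of neurons, cell stress and the enzymatic dissociation of tissue all induce them, so in single-cell suspensions they can report on the handling of the tissue as well as on its state in the animal. FOS and FOSB proteins pair with JUN, JUNB and JUND to form the AP-1 transcription factor. EGR1 is a zinc-finger transcription factor, ATF3 a stress-induced factor of the ATF/CREB family and NR4A1 an orphan nuclear receptor. IER2 is a small nuclear protein, and DUSP1 is a phosphatase that switches off the MAP kinases that induced it.

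Several of these genes are known targets of CREB, which binds cyclic AMP response elements, and the upstream sequences of some members are shown as background. CREB activity was not measured. RefSeq (GRCm38.p6) held a promoter for 8 of the 10 genes, and Egr1 and Ier2 were not matched. The 250 bases before the transcription start are given 5′ to 3′ on the gene's strand for 4 of them, with the letters TGACG or their reverse complement CGTCA, the core of a cyclic AMP response element, in capitals. The Fos stretch is chr12:85473640-85473889 (plus strand), that of Fosb chr7:19310046-19310295 (minus), that of Jun chr4:95052223-95052472 (minus) and that of Dusp1 chr17:26508473-26508722 (minus).
Fos: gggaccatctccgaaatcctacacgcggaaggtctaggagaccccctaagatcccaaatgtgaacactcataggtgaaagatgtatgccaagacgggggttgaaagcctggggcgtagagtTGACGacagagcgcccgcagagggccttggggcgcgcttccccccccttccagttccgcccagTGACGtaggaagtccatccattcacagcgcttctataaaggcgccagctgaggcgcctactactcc
Fosb: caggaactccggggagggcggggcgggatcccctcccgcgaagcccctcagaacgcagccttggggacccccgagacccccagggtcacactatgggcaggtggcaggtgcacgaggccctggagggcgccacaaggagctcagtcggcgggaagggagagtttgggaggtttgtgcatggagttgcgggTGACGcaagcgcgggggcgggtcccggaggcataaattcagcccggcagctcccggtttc
Jun: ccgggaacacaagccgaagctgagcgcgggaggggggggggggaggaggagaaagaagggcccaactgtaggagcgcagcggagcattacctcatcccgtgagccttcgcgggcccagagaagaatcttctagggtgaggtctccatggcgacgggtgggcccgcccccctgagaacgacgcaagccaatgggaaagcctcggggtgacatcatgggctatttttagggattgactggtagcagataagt
Dusp1: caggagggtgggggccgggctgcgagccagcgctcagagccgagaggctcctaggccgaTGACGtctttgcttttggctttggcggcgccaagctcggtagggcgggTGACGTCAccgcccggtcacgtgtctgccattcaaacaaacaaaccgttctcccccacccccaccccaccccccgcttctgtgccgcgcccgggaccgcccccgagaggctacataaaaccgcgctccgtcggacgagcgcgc

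In windows from 250 bases before to 50 bases after the start, this core was found on either strand in 6 of the 8 matched members, against 20.8% of all 32851 RefSeq promoters. Counting the first base before the start as -1, it began at -129 and -66 in Fos, at -60 in Fosb, at -106 in Junb and at -7 in Atf3. Nr4a1 had 4 such sites, the nearest at -40, and Jun had none. The Jund window, chr8:70697489-70697788 (plus strand), had none either, but it ended before the annotated start of the gene at 70698949. The bases at that start were therefore not searched, although the counts over 8 members include Jund. The full palindrome TGACGTCA, which contains the core, occurred only in Dusp1, at -143, and in 1.79% of all promoters. The AP-1 letters TGACTCA or TGAGTCA were in none of the 8 and in 5.20% of all promoters, and the CArG box bound by serum response factor was in none of the 8 and in 1.63%. These matches and absences describe letters in a window, and binding was not measured. Bases further upstream and the promoters of Egr1 and Ier2 were not searched.

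Drop-seq, which captures single cells in droplets and counts the 3′ ends of their transcripts by unique molecular identifiers (UMIs), had been run on 15 C57BL/6 mice, each a separate animal. The 5 wild-type (WT) samples were untreated cerebella from postnatal day 7, captured on a PDMS device without a spike-in. The 10 tumor samples were medulloblastomas of M-Smo mice at day 15 (Math1-Cre crossed to SmoM2/EYFP loxP/loxP, in which Cre under the Math1 promoter turns on a constitutively active Smoothened in cerebellar granule neuron progenitors, or CGNPs). From day 12 to day 14 these mice received 3 daily doses of vehicle (5 mice) or of the Smoothened inhibitor vismodegib at 75 mg/kg (5 mice), and their cells were captured on a glass device with spiked-in human embryonic kidney (HEK) cells, which were removed by keeping barcodes with over 90% mouse transcripts. All samples were dissociated in papain at 37 °C for 15 minutes and triturated, and tumor cells were captured within 1 h of dissociation. Age, genotype, injection, device and spike-in differed together between WT and tumors and cannot be told apart. No sample was taken without dissociation, so how much of any level was present in the animal was not measured.

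After filters on UMIs and genes, 7224 WT, 18293 vehicle and 12429 vismodegib cells remained, with a median of 1082.5 to 1625, 1141 to 2597 and 1183.5 to 2368 UMIs per cell in the mice of each group. The first principal component of the tumors' CGNP-like sums (47.1% of the variance over 7550 genes) put vehicle replicates 1 and 3 and vismodegib replicates 1 and 2 on 1 side and the other 6 tumors on the other, so values within each side are given below as well. Vismodegib replicate 3 lay near 0 on this component (-0.0078), so its side is arbitrary, whereas the other 9 tumors lay between -0.36 and -0.21 or between 0.18 and 0.48. No pair of the 15 tables shared more than 13 cell barcodes. Cells were clustered with the immediate early genes held out, and each cluster was named from fixed markers. CGNP-like cells unite dividing cells (called Node A-like), Gli1 and Atoh1 progenitors (Node B-like), cells that have begun to differentiate (Node C-like) and late differentiating ones (Node D-like), with 5064 WT, 17271 vehicle and 11283 vismodegib cells. The unit CPM is a gene's share of all UMIs in the cells of 1 class and 1 mouse, scaled to a total of 1000000. CPM values describe 3′ ends, so the levels of different genes are not ranked against each other. The share of mitochondrial UMIs in CGNP-like cells was 3.78% ± 0.987 in WT, 2.13% ± 0.463 in vehicle and 2.52% ± 0.690 in vismodegib samples (SD, n = 5 mice each, as below unless SE or another number of mice is given).

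In CGNP-like cells the AP-1 genes Fos, Fosb and Jun were far higher in vehicle-treated tumors than in WT cerebella. Fos was at 25.9, 40.4, 23.7, 15.9 and 17.8 CPM in the 5 WT mice and at 318, 544, 341, 354 and 312 CPM in the 5 vehicle tumors. Every tumor thus lay far above every WT mouse, and the fold was 14.4 (log2 difference 3.85 ± 0.24 SE, adjusted p = 3.21e-08, edgeR quasi-likelihood test adjusted over 12597 genes). Fosb, a second FOS-family partner, was at 8.10, 10.1, 2.84, 3.41 and 1.78 CPM in WT mice and at 120.2, 191, 225, 134 and 98.3 CPM in vehicle tumors (log2 difference 4.70 ± 0.34, adjusted p = 1.69e-07). The groups did not overlap, and the WT values rest on 54 UMIs in all. Jun, the partner of both, was at 152, 148, 199.8, 176 and 159 CPM in WT mice and at 996, 1436, 1109, 1287 and 1155 CPM in vehicle tumors (log2 difference 2.75 ± 0.16, adjusted p = 2.90e-08), again without overlap.

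The JUN relatives moved less. Junb was at 4.99, 10.1, 2.84, 2.27 and 7.11 CPM in WT mice against 17.0, 24.2, 13.2, 16.3 and 10.2 CPM in vehicle tumors (log2 difference 1.54 ± 0.36, adjusted p = 0.00284), a low level in both groups, with the highest WT mouse just under the lowest tumor. Jund, the JUN gene that most cells express without a stimulus, was at 137, 108, 161, 209 and 142 CPM against 202, 287, 427, 378 and 227 CPM (0.91 ± 0.23, adjusted p = 0.00498), and 1 WT mouse reached into the range of the tumors.

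Egr1, Ier2 and Dusp1 were higher in vehicle tumors by similar factors. Egr1 was at 324, 235, 103, 80.7 and 95.1 CPM in WT mice and at 757, 603, 531, 508 and 392 CPM in vehicle tumors (1.65 ± 0.31, adjusted p = 0.000571). Its spread among WT mice was wide, and the groups still did not overlap. Ier2 was at 132, 152, 106, 81.1 and 92.5 CPM against 434, 499, 225, 386 and 348 CPM (1.66 ± 0.20, adjusted p = 1.73e-05). Dusp1 was at 29.6, 28.9, 39.8, 27.6 and 27.6 CPM against 107, 125, 111, 107 and 97.9 CPM (1.75 ± 0.16, adjusted p = 1.28e-06). Dusp1 had the smallest spread of these 3 genes within both groups, and its count is uncertain because annotated transcripts overlap it on the same strand. Neither Ier2 nor Dusp1 overlapped between groups.

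Atf3 and Nr4a1 were near the limit of detection in CGNP-like cells. Atf3 was at 0.935, 0.722, 2.84, 0.757 and 0.889 CPM in WT mice, 10 UMIs in all, and at 2.43, 11.3, 21.1, 18.7 and 3.18 CPM in vehicle tumors (log2 difference 3.26 ± 0.74, adjusted p = 0.00215). The vehicle tumors differed widely, and the lowest of them was below the highest WT mouse. Of 15 alternative fits and fits with 1 mouse left out, Atf3 could be tested in only 9, and it was called in each of those. Nr4a1 had 8 UMIs in all WT and 55 in all vehicle CGNP-like cells and did not pass the filter on low counts, with means of 1.09 ± 0.702 and 2.13 ± 1.69 CPM.

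**Figure D1:**
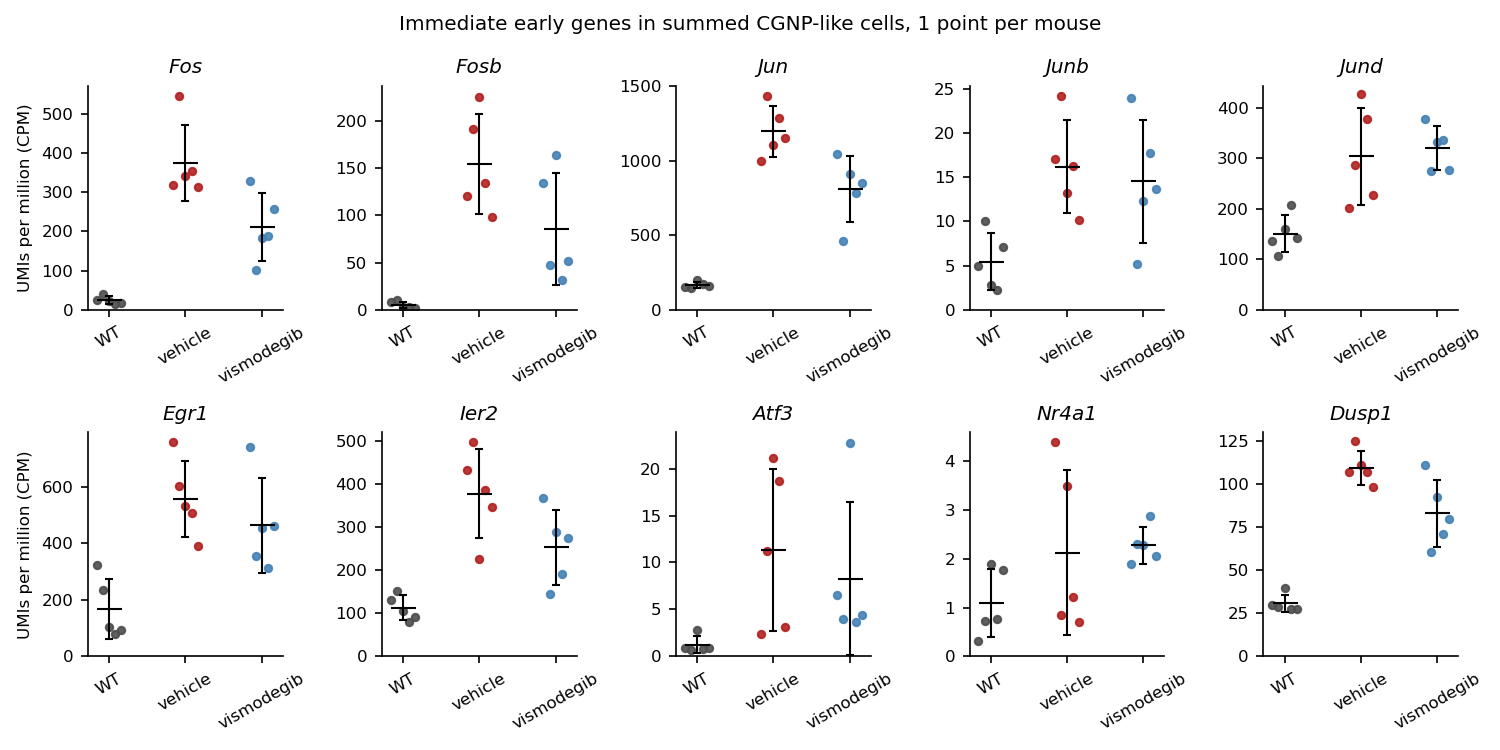
Level of each of the 10 genes in summed CGNP-like cells (CPM, linear axis from 0, 1 panel per gene) in WT, vehicle and vismodegib mice. Each point is 1 mouse and bars give mean ± SD over 5 mice. For Fos the WT mice sit between 15.9 and 40.4 CPM, the vehicle tumors between 312 and 544 and the vismodegib tumors between 101 and 329.

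Of the 9 members tested in CGNP-like cells, 9 were thus called higher in vehicle tumors at an adjusted p under 0.05, where 21.1% of all genes tested were. Their median log2 difference was 1.75, against 0.05 over all genes tested. Members with few WT UMIs could pass the filter only through the tumors, so these counts describe the genes and are no test of the group. RNA of other cell types was also measured in these sums. The 9 microglia markers summed to 14.2 to 26.1 CPM in WT and 3.98 to 27.8 CPM in vehicle CGNP-like cells, the 9 vascular fibroblast markers to 60.5 to 113 and 14.7 to 49.6 CPM, and the 8 endothelial markers to 22.8 to 38.3 and 9.49 to 12.1 CPM. The 9 astrocyte markers summed to 241 to 397 CPM in WT and 324 to 534 CPM in vehicle CGNP-like cells, against 9746 to 35538 CPM in the astrocyte-like cells of vehicle tumors, and the 10 oligodendrocyte markers to 240.1 to 362 and 266 to 452 CPM. The groups overlapped for these 2 lists, whose part in the differences was not tested.

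The difference between vehicle tumors and WT was seen at each stage of the CGNP lineage. In Node A-like cells 7 of 7 tested members were higher (15.1% of all genes), in Node B-like cells 8 of 8 (17.8%), in Node C-like cells 6 of 7 (15.5%) and in Node D-like cells 7 of 7 (12.7%). The exception was Jund in Node C-like cells, with a log2 difference of 0.41 ± 0.26 (adjusted p = 0.239). As in the pooled cells, members with few WT UMIs could pass the filter only through the tumors. These counts and those of the other classes below thus describe the genes and are no test of the group. Fosb had a log2 difference of 5.70 ± 0.57 in Node D-like cells and of 3.93 ± 0.40 in Node B-like cells. In Node D-like cells 2 of 5 WT mice had no Fosb UMI and none had more than 3. The value there ranged from 5.22 to 7.80 over the alternative fits and the fits with 1 mouse left out. For Egr1 the value was 2.24 ± 0.26 in Node D-like cells, against 1.22 ± 0.32 in Node C-like cells and 1.30 ± 0.31 in Node B-like cells. Fos ranged only from 3.60 ± 0.26 in Node B-like to 4.30 ± 0.27 in Node A-like cells, and whether these differences between nodes exceed the error was not tested for vehicle against WT.

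Among the cells that do not belong to the CGNP lineage, the share of tested members called varied by cell type. These classes differ in depth, and whether the difference from WT itself varies between them was not tested. Oligodendrocyte-like cells (27 to 80 per WT mouse and 30 to 202 per vehicle tumor) had 5 of 5 tested members higher in vehicle tumors (12.5% of all genes). Fos was at 23.4, 75.5, 38.2, 85.0 and 149 CPM in their WT samples and at 541, 416, 696, 476 and 346 CPM in vehicle tumors (2.86 ± 0.35, adjusted p = 3.09e-06), without overlap. Fosb differed by 3.99 ± 0.66, Jun by 2.63 ± 0.31, Jund by 1.80 ± 0.46 and Egr1 by 1.53 ± 0.37, and the call of Egr1 was lost with DESeq2 (adjusted p = 0.0799). Astrocyte-like cells had 6 of 8 higher (11.3% of all genes): Fosb by 2.33 ± 0.38, Dusp1 by 2.12 ± 0.44, Jun by 1.67 ± 0.26, Junb by 1.22 ± 0.43, Fos by 1.16 ± 0.29 and Ier2 by 1.12 ± 0.39. The Junb and Ier2 calls there were lost when vehicle replicate 1 or 2, or WT replicate 2, 4 or 5, was left out, with DESeq2 and in cells with at least 1000 UMIs, with adjusted p of up to 0.192 and 0.196. That of Ier2 was also lost without WT replicate 3, and those of Ier2 and Fos without the filter on low counts (adjusted p = 0.0586 and 0.0575). RNA of CGNP genes was present in both classes. As a share of its CGNP-like level, Neurod1 stood at 7.34% in WT and 22.1% in vehicle astrocyte-like cells, and Nhlh1 at 4.00% and 19.7%. In oligodendrocyte-like cells they stood at 8.39% and 16.2% and at 10.6% and 12.9%. Atoh1 stood at 23.0% and 23.5% in astrocyte-like cells. The part of this RNA was not tested.

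Vascular fibroblast-like cells (7 to 80 per vehicle tumor) had 4 of 5 tested members higher (15.9% of all genes). Jun was at 592, 376, 349, 277 and 240.2 CPM in WT mice and at 895, 2201, 3059.7, 3753 and 1328 CPM in vehicle tumors (2.70 ± 0.36, adjusted p = 1.95e-05), without overlap. Ier2 differed by 1.57 ± 0.47, Fosb by 1.51 ± 0.43 and Fos by 1.04 ± 0.34, each with overlapping groups. All 3 of these calls were lost with DESeq2. The call of Ier2 was also lost without WT replicate 4 or vehicle replicate 2, that of Fosb without vehicle replicate 4 and that of Fos without either of WT replicate 4 and vehicle replicate 4, without the filter on low counts and in cells with at least 1000 UMIs, with adjusted p of up to 0.0726, 0.0683 and 0.258. Endothelial-like cells (5 to 21 per mouse) had 1 of 2 tested members higher (9.89% of all genes), Jun, at 638, 357, 484, 443 and 572 CPM in WT mice and 822, 889.6, 597, 1129 and 1318 CPM in vehicle tumors (0.96 ± 0.28, adjusted p = 0.0145), a call that was lost with DESeq2, without the filter on low counts and without WT replicate 2 (adjusted p of up to 0.431).

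In microglia-like cells 1 of the 8 tested members was higher in vehicle tumors (8.77% of all genes). That gene, Atf3, was at 124, 67.3, 72.1, 168 and 331 CPM in WT mice and at 412, 617, 367, 523 and 212 CPM in vehicle tumors (1.80 ± 0.40, adjusted p = 0.00286), with 1 vehicle tumor inside the WT range. Fos was at 724, 808, 144, 1062 and 1901 CPM in WT mice and at 659, 1077, 1589, 562 and 601 CPM in vehicle tumors (0.04 ± 0.38, adjusted p = 0.964), with overlap over most of the range. Jun differed by 0.68 ± 0.40 and Egr1 by -0.46 ± 0.44, neither past the threshold. These sums rest on 7 to 28 microglia-like cells per WT mouse and 6 to 103 per vehicle tumor.

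**Figure D2:**
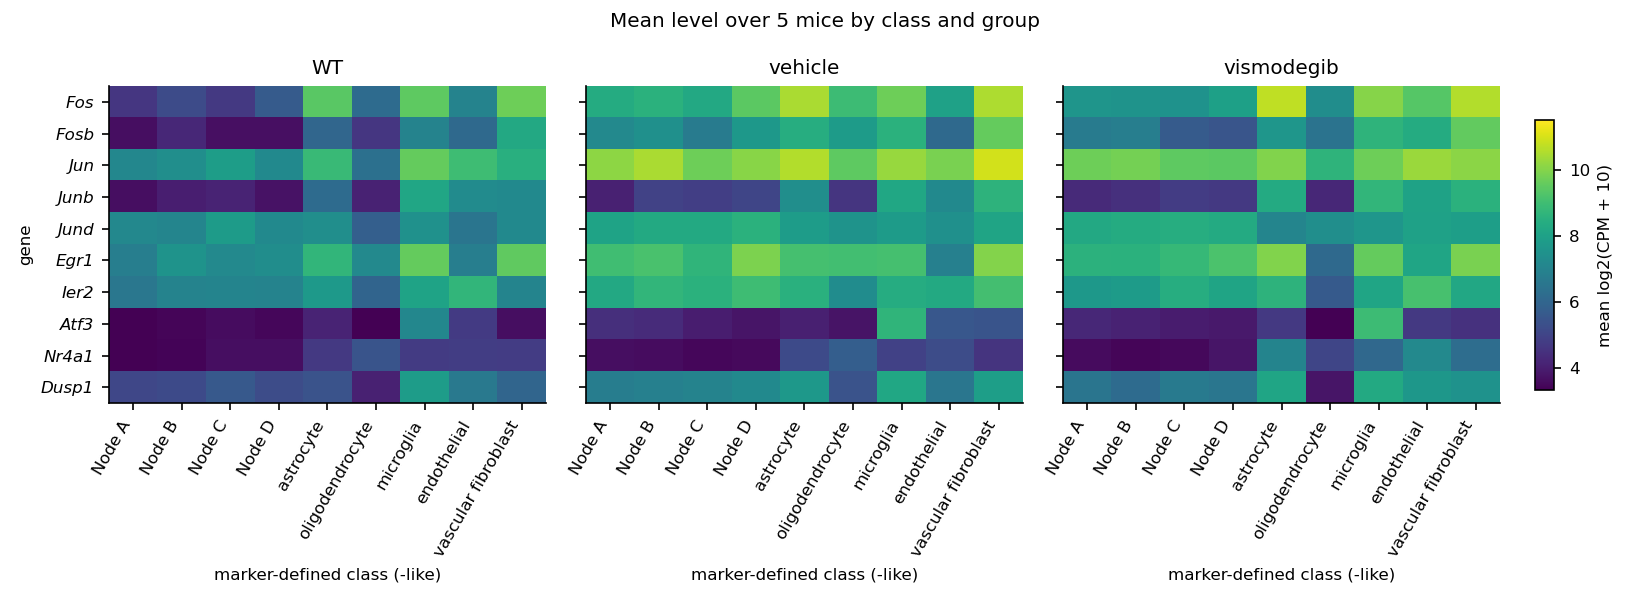
Mean level of each gene (rows) in 9 marker-defined classes (columns), 1 panel each for WT, vehicle and vismodegib mice. Colour is the mean over 5 mice of log2(CPM + 10), on 1 scale for all panels. Junb is at 2.56 CPM in WT Node A-like cells and at 314 CPM in WT microglia-like cells.

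Within WT cerebella the levels already differed by cell type. Fos averaged 928 ± 639 CPM in microglia-like, 858 ± 330.0 in vascular fibroblast-like and 695 ± 190.0 CPM in astrocyte-like cells, 3 classes whose values overlap. It averaged 183 ± 105 CPM in endothelial-like, 91.8 ± 59.8 in GABAergic-like, 74.2 ± 49.0 in oligodendrocyte-like, 24.7 ± 9.68 in CGNP-like and 9.80 ± 9.34 CPM in Purkinje-like cells. The order of endothelial-like, GABAergic-like and oligodendrocyte-like cells is within their spread, while each WT astrocyte-like sum (416 to 875 CPM) lay above every WT CGNP-like sum (15.9 to 40.4 CPM). GABAergic-like and Purkinje-like cells had no tumor class to compare with.

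Within the 10 tumors, each class was set against the CGNP-like cells of the same tumor, by a 2-sided exact permutation of signs that cannot give a p below 0.00195, with p-values adjusted over 50 gene and class pairs. Of these, 29 had an adjusted p under 0.05. Junb, an AP-1 partner, was low in CGNP-like and oligodendrocyte-like cells and higher in the other 4 classes. It ranged from 5.16 to 24.2 CPM in CGNP-like cells of the tumors and from 63.8 to 1039 CPM in their microglia-like cells. On the scale of log2(CPM + 10) it was higher by 3.95 ± 0.628 (SD) in vascular fibroblast-like, 3.83 ± 1.07 in microglia-like, 3.21 ± 1.05 in astrocyte-like and 3.00 ± 1.17 in endothelial-like cells, in 10 of 10 tumors each (adjusted exact p = 0.00543). In oligodendrocyte-like cells, with 0 to 6 Junb UMIs per tumor, the difference was -0.23 ± 1.11 (adjusted exact p = 0.588).

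Fos and Fosb were higher in 3 of the 5 classes. Fos was higher than in CGNP-like cells by 2.45 ± 0.944 in astrocyte-like, 2.39 ± 0.833 in vascular fibroblast-like and 1.73 ± 0.783 in microglia-like cells, in 10 of 10 tumors each (adjusted exact p = 0.00543). Fosb was higher by 2.72 ± 0.829 in vascular fibroblast-like, 1.77 ± 0.773 in microglia-like and 1.18 ± 0.664 in astrocyte-like cells, again in 10 of 10. In endothelial-like cells they differed by 0.55 ± 1.64 (adjusted exact p = 0.377) and 0.41 ± 2.37 (adjusted exact p = 0.647). Jun differed by 0.59 ± 0.651 in vascular fibroblast-like cells, where it was higher in 7 of 10 tumors (adjusted exact p = 0.0404), by 0.33 ± 0.402 in astrocyte-like cells (8 of 10, adjusted exact p = 0.0536) and by 0.04 ± 0.593 in microglia-like cells (adjusted exact p = 0.891). Jund was lower in astrocyte-like cells by -0.85 ± 0.737 and in endothelial-like cells by -0.59 ± 0.522, in 9 of 10 tumors each (adjusted exact p = 0.00888 and 0.0195).

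Atf3 was higher in microglia-like than in CGNP-like cells by 4.59 ± 0.617 in 10 of 10 tumors, and in none of the other 4 classes was it called higher. It differed by 0.90 ± 1.91 in endothelial-like and 0.76 ± 1.55 in vascular fibroblast-like cells, higher in 6 of 10 tumors each. The values there reached 581 CPM (vismodegib replicate 3) and 349 CPM (vehicle replicate 4), and microglia-like cells were not tested against these classes. Nr4a1 was higher than in CGNP-like cells in all 5 classes, by 1.79 to 2.59, in 8 or 9 of 10 tumors. Dusp1 was higher in microglia-like (1.54 ± 0.581), astrocyte-like (1.21 ± 0.833) and vascular fibroblast-like cells (0.99 ± 0.532). Oligodendrocyte-like cells went the other way for several genes: Dusp1 was lower there by -2.11 ± 0.993, Ier2 by -1.79 ± 1.01, Jun by -0.88 ± 0.519 and Jund by -0.86 ± 0.568, in 10 of 10 tumors each (adjusted exact p = 0.00543). Class sums differ in depth, and with every cell thinned to 500 UMIs 18 of the pairs passed.

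Within the CGNP lineage of the tumors, Node D-like cells had more Egr1 than Node A-like cells of the same tumor, by 0.75 on the log2(CPM + 10) scale in 10 of 10 tumors (adjusted exact p = 0.00977 over 10 genes). Ier2 was higher by 0.57 in 10 of 10 (adjusted exact p = 0.00977), Fos by 0.73 in 9 of 10 (0.0130), Junb by 0.67 (0.0293) and Jund by 0.28 (0.0313), each in 9 of 10. These values pool both treatments, and by treatment the mean difference was 1.08 ± 0.464 in vehicle and 0.39 ± 0.379 in vismodegib tumors for Fos, 0.96 ± 0.208 and 0.38 ± 0.701 for Junb, 0.46 ± 0.237 and 0.09 ± 0.198 for Jund, 0.89 ± 0.199 and 0.61 ± 0.369 for Egr1 and 0.71 ± 0.217 and 0.42 ± 0.273 for Ier2. Atf3 was lower by -0.51 in 9 of 10 (adjusted exact p = 0.0326). Fosb, Jun, Dusp1 and Nr4a1 differed by -0.36, -0.17, 0.23 and 0.06, none past the threshold. The Fosb value averages means of opposite sign, 0.52 ± 0.572 in vehicle and -1.25 ± 0.314 in vismodegib tumors.

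Vismodegib-treated tumors had lower mean levels of most members in CGNP-like cells, but none of the 10 tested was called against vehicle (4.7% of all genes were called lower). At an unadjusted p under 0.05 there were 5 members, as there were 3231 of the 12476 genes tested. Fos was at 329, 101, 183, 188 and 256 CPM in vismodegib tumors, against 312 to 544 CPM in vehicle tumors. Vismodegib replicate 1 alone lay inside the vehicle range, and the log2 difference was -0.82 ± 0.26 (edgeR adjusted p = 0.0568). Jun was at 1045, 459, 911, 785 and 851 CPM (-0.56, adjusted p = 0.0849), and vismodegib replicate 1 was again the only tumor within the vehicle range. On side 1 of the tumors Fos was at 318 to 341 CPM with vehicle and 101 to 329 CPM with vismodegib, and on side 2 at 312 to 544 and 183 to 256 CPM. The make-up of the pooled CGNP-like cells also differed with treatment. Node D-like cells were 1468 of 17271 vehicle and 4932 of 11283 vismodegib cells, and Node B-like cells 9056 and 2308. The part of this shift in the pooled differences was not tested.

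Of the remaining members, Fosb was at 135, 47.3, 164, 31.7 and 52.0 CPM in vismodegib tumors (-0.87, adjusted p = 0.189), Egr1 at 741, 353, 452, 312 and 461 CPM (-0.26, adjusted p = 0.501) and Ier2 at 368, 144, 289, 193 and 275 CPM (-0.57, adjusted p = 0.158). Dusp1 was at 111, 60.5, 92.2, 70.9 and 79.3 CPM (-0.41, adjusted p = 0.117), with vismodegib replicate 1 as the only tumor within the vehicle range. Vismodegib replicate 1 was the highest of its group for Fos, Jun, Egr1, Ier2 and Dusp1. Jund averaged 320 ± 43.7 CPM against 304 ± 96.4 in vehicle tumors, Junb 14.6 ± 6.96 against 16.2 ± 5.25, Atf3 8.27 ± 8.15 against 11.3 ± 8.60 and Nr4a1 2.28 ± 0.378 against 2.13 ± 1.69 CPM. The call depended on the fit: without vismodegib replicate 1 Fos (-1.02, adjusted p = 0.0204) and Dusp1 (-0.52, adjusted p = 0.0417) were called lower, and DESeq2 called Fos (adjusted p = 0.0221) and Jun (adjusted p = 0.0480). With the replicate number as a block, 1 member was called, Fosb (adjusted p = 0.0416). The median over the 10 genes was -0.48, against 0.00 over all genes tested.

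By node, Fos and Fosb were lower with vismodegib in Node D-like cells, the late differentiating cells of the tumor. There 2 of 7 tested members were called lower, where 0.0697% of all genes (5 of 7169) were. Fos was at 573, 834, 886, 745 and 468 CPM in vehicle tumors and at 421, 122, 271, 196 and 291 CPM in vismodegib tumors. Every vismodegib tumor was below every vehicle tumor, with a log2 difference of -1.43 ± 0.26 (edgeR adjusted p = 0.0368). Fosb was at 129.8, 212, 493, 189.8 and 109.7 CPM in vehicle tumors and at 55.6, 24.1, 87.0, 12.3 and 26.9 CPM in vismodegib tumors, also without overlap (-2.67 ± 0.47, adjusted p = 0.0368). Within side 1 Fos was at 573 to 886 CPM with vehicle and 122 to 421 CPM with vismodegib, and within side 2 at 468 to 834 and 196 to 291 CPM. Ier2 (-0.86), Dusp1 (-0.68), Jun and Egr1 (-0.57 each) and Jund (-0.25) did not pass. At an unadjusted p under 0.05 there were 6 of the 7 members, as there were 551 of the 7169 genes.

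The call of both genes in Node D-like cells was sensitive to single tumors. Over 16 alternatives Fos kept its call in 10 and Fosb in 11, with log2 differences between -1.64 and -1.26 for Fos and between -3.12 and -2.20 for Fosb. Both lost it without vehicle replicate 1, 2 or 4 or vismodegib replicate 4 or 5, and Fos also without vismodegib replicate 3, with the adjusted p reaching 0.148 and 0.118. The class itself shifted with treatment: the cluster led by Calb2 and Pcp4 made up 35.5% of Node D-like cells in vismodegib and 11.2% in vehicle tumors, and the cluster led by Tfap2b and Dpysl3 16.0% and 38.1%. Within clusters, mean Fos was lower with vismodegib in 4 of 5: 192 ± 77.6 against 856 ± 579 CPM in the Calb2 cluster, 307 ± 158 against 723 ± 191 in that led by Car3 and Sez6, 179.7 ± 154 against 685 ± 141 in the Tfap2b cluster and 236 ± 157 against 709 ± 316 in that led by Fat2 and Adamts18. In the Gabra6 cluster it was 548 ± 509 against 513 ± 311 CPM. The vehicle values of the Calb2 and Gabra6 clusters rest on 4 tumors with enough cells each, with 124 and 89 vehicle cells in all.

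In the other nodes little passed. Node A-like cells had 0 of 9 members called by edgeR (2.33% of all genes were called either way) and 4 at an unadjusted p under 0.05, as there were 1239 of the 10211 genes tested. Fos still did not overlap, at 325, 508, 271, 259 and 277 CPM in vehicle and 248, 98.3, 156, 218 and 234 CPM in vismodegib tumors (-0.79, adjusted p = 0.135). Node B-like cells had 1 of 9 called lower (1.9% of all genes), Ier2, at 468, 554, 246, 434 and 401 CPM in vehicle and 310.0, 142, 229, 188 and 241 CPM in vismodegib tumors (-0.91 ± 0.23, adjusted p = 0.0421). At an unadjusted p under 0.05 there were 4 of the 9 members, as there were 1459 of the 9902 genes tested. Vehicle replicate 3 lay inside the vismodegib range of Ier2, and the call of Ier2 was kept in 7 of 16 alternatives. It was lost without any 1 of vehicle replicates 1, 2, 4 and 5 or vismodegib replicates 2 to 5 and in cells with at least 1000 UMIs, with an adjusted p of up to 0.113. Node C-like cells had 0 of 8 called (0.311% of all genes) and 2 at an unadjusted p under 0.05, as there were 626 of the 8041 genes tested. The contrast between Node D-like and Node A-like cells was also compared between treatments by exact permutation, together with that between microglia-like and CGNP-like cells. None of the 20 tests passed, the lowest being Fosb in Node D-like against Node A-like cells, whose means in the 2 groups of tumors are given above (exact p = 0.00794, the smallest that 5 against 5 tumors can give, adjusted p = 0.159). Jund in the same nodes had an exact p of 0.0397 (adjusted p = 0.198). Microglia-like cells exceeded CGNP-like cells in Fos by 1.15 ± 0.597 in vehicle and 2.31 ± 0.428 in vismodegib tumors and in Fosb by 1.25 ± 0.697 and 2.28 ± 0.449 (exact p = 0.0317 and adjusted p = 0.198 each), and the other 16 tests had an unadjusted exact p above 0.05. A single gene at that smallest p cannot pass over 20 tests, so these tests could not settle whether the response of 1 gene differs between nodes.

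**Figure D3:**
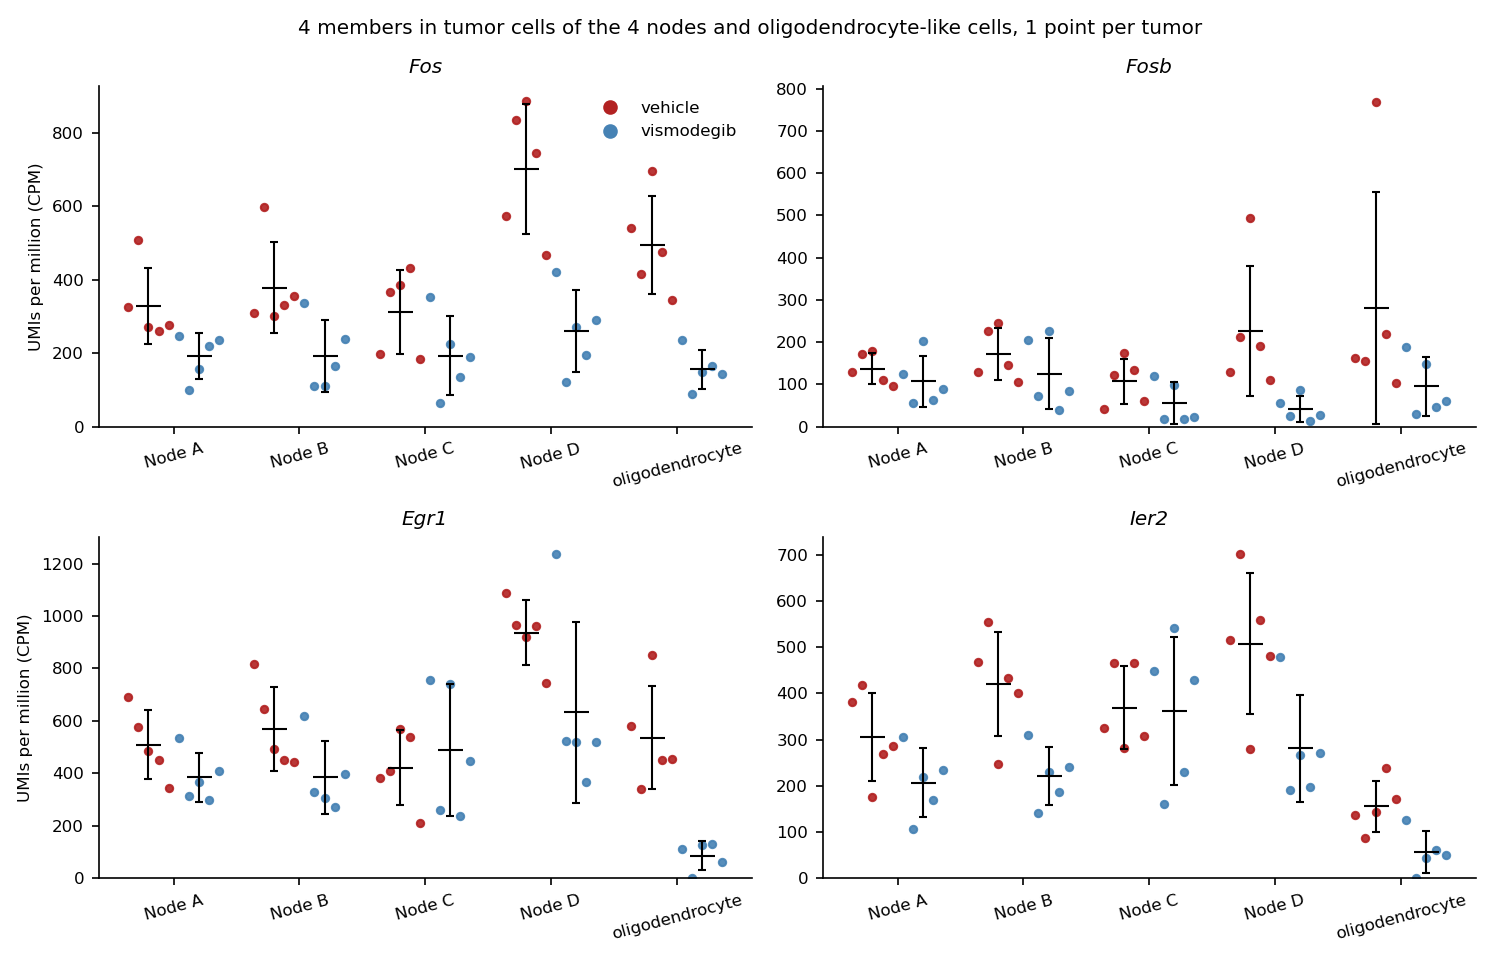
Levels of Fos, Fosb, Egr1 and Ier2 (CPM, linear axis from 0) in the 4 node-like classes and in oligodendrocyte-like cells of vehicle and vismodegib tumors. Each point is 1 tumor and bars give mean ± SD over 5 tumors. Fos in Node D-like cells lies at 468 to 886 CPM in vehicle and 122 to 421 CPM in vismodegib tumors.

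In oligodendrocyte-like cells, 8 to 55 per treated tumor, 3 of 6 tested members were called lower with vismodegib (1.68% of all genes). Egr1 was at 581, 338, 852, 449.8 and 455 CPM in vehicle tumors and at 110.0, 0, 128, 129 and 61.1 CPM in vismodegib tumors, without overlap (-2.45 ± 0.35, edgeR adjusted p = 0.000439). Fos was at 541, 416, 696, 476 and 346 CPM in vehicle and at 236, 88.2, 149, 165 and 144 CPM in vismodegib tumors (-1.52 ± 0.27, adjusted p = 0.00199), again without overlap. Within side 1 of the tumors Egr1 was at 581 to 852 CPM with vehicle and 0 to 110.0 CPM with vismodegib, and within side 2 at 338 to 455 and 61.1 to 129 CPM. Ier2 was at 137, 87.0, 144, 238 and 171 CPM in vehicle and at 126, 0, 42.5, 61.8 and 50.3 CPM in vismodegib tumors (-1.32 ± 0.38, adjusted p = 0.0468), with vismodegib replicate 1 inside the vehicle range. Egr1 stayed called in all 16 alternatives and Fos in 15 of 16, lost only with cells thinned to 500 UMIs (adjusted p = 0.0625). Ier2 stayed called in 6 of 15 and was lost with DESeq2 and without any 1 of vehicle replicates 1, 3, 4 and 5 or vismodegib replicates 2 to 5 (adjusted p of up to 0.234).

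The make-up of the oligodendrocyte-like class moved with treatment as well. Pdgfra, which marks oligodendrocyte progenitors, was at 995 ± 268 CPM in vehicle and 307 ± 62.1 CPM in vismodegib tumors, while the myelin gene Mag was at 330 ± 330 and 2246 ± 759 CPM. Cells with a UMI of Pdgfra or of Cspg4, another progenitor marker, made up 71.5% ± 9.96 of the class in vehicle and 44.2% ± 12.6 in vismodegib tumors. Among those cells alone, Egr1 was at 736 ± 238 CPM in 5 vehicle and 193 ± 137 CPM in 4 vismodegib tumors with enough cells, without overlap (log2 difference -2.62, exact permutation p = 0.00794, adjusted p = 0.0476 over 6 tests). Fos was at 663 ± 210 and 360 ± 208 CPM (-0.98, exact permutation p = 0.0556, adjusted p = 0.167) and Ier2 differed by -1.34 (exact permutation p = 0.183, adjusted p = 0.343). Cells were not thinned for this split. The class held 906042 UMIs in 416 vehicle cells and 617117 UMIs in 154 vismodegib cells. A marker UMI was thus easier to find in a vismodegib cell, and the effect on the subsets was not tested.

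Cells with a UMI of the myelin genes Mag or Mog and of neither progenitor marker made up 7.62% ± 3.86 of the class in vehicle and 39.6% ± 15.3 in vismodegib tumors, and the other 3 of the 6 tests were run in them. Their members rest on few UMIs, in 3 vehicle and 4 vismodegib tumors with enough cells. Egr1, with 1 and 2 UMIs in these cells, differed by -0.05 (exact permutation p = 1, adjusted p = 1), Fos, with 8 and 8 UMIs, by -1.78 (exact permutation p = 0.257, adjusted p = 0.343) and Ier2, with 2 and 3 UMIs, by -1.02 (exact permutation p = 0.286, adjusted p = 0.343). In cells with none of the 4 markers, where no test was run, mean Fos was at 198 ± 121 CPM in 4 vehicle and 378 ± 268 CPM in 3 vismodegib tumors, and mean Egr1 at 148 ± 104 and 101 ± 132 CPM. RNA of CGNP genes was present in the sums of the whole class, and the 3 genes looked at did not move together. As a share of the CGNP-like level, Neurod1, a gene of differentiating granule neurons, stood at 16.2% in vehicle and 4.61% in vismodegib tumors with a CGNP-like level of 1183 and 2554 CPM, Nhlh1 stood at 12.9% and 13.8%, and Atoh1, on 10 and 3 UMIs, at 10.9% and 17.7%. The part of this RNA in the differences was not tested.

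In the remaining classes no member was called by edgeR. Astrocyte-like cells had 0 of 8 called (1.98% of all genes) and 2 at an unadjusted p under 0.05, microglia-like cells 0 of 9 (0.312%) and none, endothelial-like cells 0 of 3 (0%) and 2, and vascular fibroblast-like cells 0 of 6 (1.06%) and 1. Over all genes tested, the unadjusted counts in these classes were 285 of 1917, 184 of 1600, 37 of 440 and 66 of 566. Atf3 in microglia-like cells was at 879, 258, 1057, 269 and 358 CPM in vismodegib tumors (0.44 ± 0.39 against vehicle, adjusted p = 0.689), and Fos was at 1791, 448, 1556, 771 and 1143 CPM (0.53 ± 0.34, adjusted p = 0.572). Atf3 overlapped between the groups, and Fos with vismodegib spanned the whole vehicle range. Fos in astrocyte-like cells averaged 1709 ± 458 CPM with vismodegib and 1561 ± 906 CPM with vehicle.

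**Figure D4:**
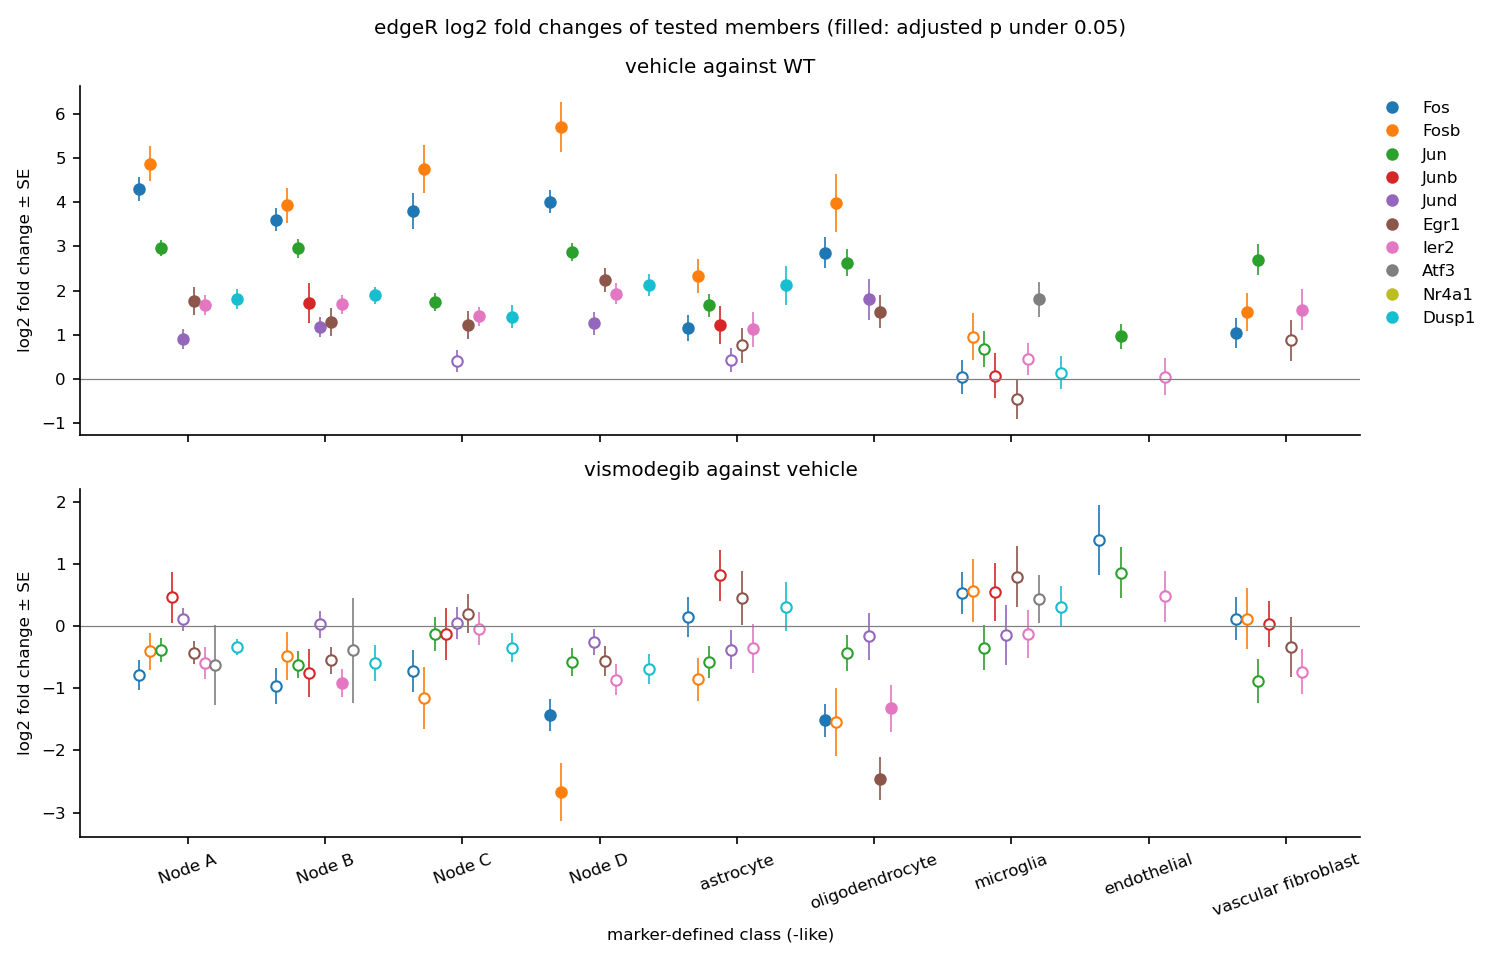
Log2 fold changes with SE from the edgeR fits, for vehicle against WT (upper) and vismodegib against vehicle (lower), for each tested member in 9 marker-defined classes. Filled points have an adjusted p under 0.05. In Node D-like cells Fosb is at 5.70 in the upper panel and at -2.67 in the lower, 2 comparisons that share the vehicle tumors.

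Within each tumor, detection of the members was compared between single cells. Each CGNP-like cell was thinned to 500 UMIs, so that all had the same depth. A Fos UMI was then found in 1.41% ± 0.713 of cells in WT, 14.2% ± 2.14 in vehicle and 8.11% ± 3.48 in vismodegib mice. In vehicle tumors a Fosb UMI was found in 18.7% ± 5.50 of cells with a Fos UMI and in 4.13% ± 1.30 of cells without one. The shares were 54.5% and 33.7% for Jun, 35.7% and 16.1% for Egr1, 23.7% and 13.7% for Ier2, 23.2% and 12.7% for Jund, 9.88% and 4.48% for Dusp1 and 1.92% and 0.735% for Junb, each higher in 5 of 5 tumors. In vismodegib tumors the Fosb shares were 10.7% and 2.34%, the Jun shares 42.1% and 25.9% and the Egr1 shares 30.9% and 13.8%, also in 5 of 5. Atf3 was the exception among detected genes, at 0.781% and 0.548% and higher in 3 of 5 vehicle tumors. Within single nodes not all of these 7 genes were higher in every tumor. In vehicle tumors the number that were was 5 for Node A-like cells, 6 for Node B-like cells, 4 for Node C-like cells and 5 for Node D-like cells. With vismodegib these numbers were 3, 5, 3 and 4, over 4 tumors in the first pair of nodes and 5 in the others. Junb fell short in each node, Jund and Dusp1 in 3 nodes each, Fosb with vismodegib in Node A-like (3 of 4 tumors) and Node C-like cells (4 of 5), and Ier2 with vismodegib in Node A-like cells (3 of 4). These shares count cells with a UMI, not cells that express the gene, and RNA free in the suspension adds to them. In 11 samples the barcodes under 500 UMIs held at least 30000 UMIs, and there Fos stood at 0.18 to 1.04 times its level in all cells of the same sample. Against the CGNP-like cells alone it stood at 1.09 to 4.77 times in the 5 WT samples and at 0.28 to 1.11 times in the 6 tumors. The other 4 tumors had at most 2271 UMIs in such barcodes and no Fos UMI, and the part of free RNA was not tested.

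**Figure D5:**
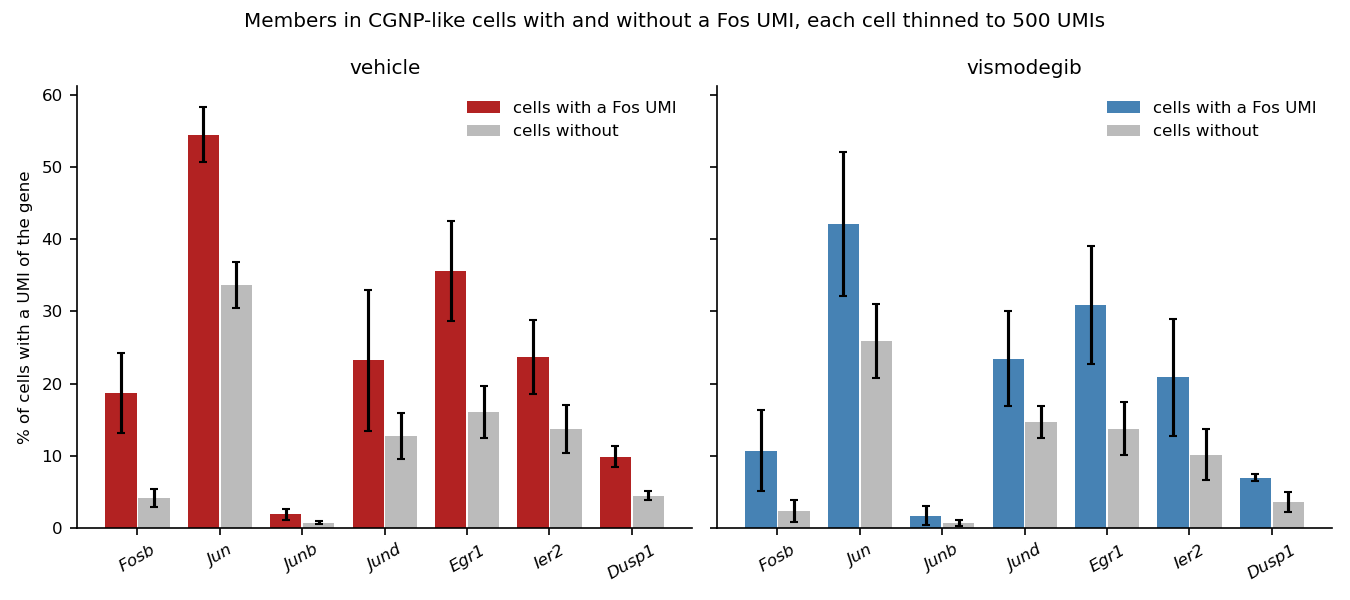
Share of CGNP-like cells (%) with a UMI of each other member among cells with and without a Fos UMI, after thinning to 500 UMIs, in vehicle and vismodegib tumors. Bars start at 0 and give the mean over 5 tumors with its SD. For Fosb the vehicle means are 18.7% and 4.13%.

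Over the 29 mean profiles of class and group, the members resembled each other to different degrees. Pearson's r of log2(CPM + 10) with Fos was 0.93 for Fosb, the highest of all 8311 genes ranked, 0.82 for Jun and Egr1, 0.78 for Junb, 0.77 for Dusp1, 0.69 for Ier2, 0.61 for Nr4a1, 0.51 for Atf3 and 0.44 for Jund. Outside the members the closest to Fos were Itm2c and Capns1 (0.85 each), Bad (0.82), Nucb1 (0.81) and 9530068E07Rik (0.79). The closest to Jun were Irf3 (0.85), Capns1 (0.82), and Gnas, Tspan31 and Irak1 (0.79 each). The profiles share libraries and the split between WT and tumors, so these values are descriptions.

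A list of 39 other early-response genes behaved in part like the members. In CGNP-like cells 14 of its 27 tested genes were higher and 2 lower in vehicle tumors than in WT, where 21.1% of all genes were higher and 23.2% lower, with a median log2 difference of 0.88. Ier5 (3.70 ± 0.23), Klf4 (3.60 ± 0.40), Fosl2 (3.20 ± 0.40), Myc (3.19 ± 0.27) and the matrix gene Cyr61 (3.10 ± 0.50) had the largest differences, and Klf10 (-0.68 ± 0.22) and Socs3 (-0.57 ± 0.22) were lower. In WT mice Fosl2, Klf4 and Cyr61 averaged only 1.83, 1.00 and 0.817 CPM. Genes with so few WT UMIs could pass the filter only through the tumors, so these counts describe the genes and are no test of the list. With vismodegib 8 of 30 tested genes of this list were lower than in vehicle tumors and none higher, where 4.7% of all genes were lower and 8.57% higher. Myc, a growth-promoting transcription factor, was at 68.3 ± 8.93 CPM in vehicle and 8.26 ± 1.93 CPM in vismodegib tumors (-2.99 ± 0.20, edgeR adjusted p = 4.21e-06). Ier5 went from 342 ± 76.4 to 117 ± 23.2 CPM (-1.55 ± 0.16), Dusp6, a feedback phosphatase of the ERK pathway, from 49.9 ± 5.17 to 16.1 ± 4.66 CPM (-1.65 ± 0.18) and Cyr61 from 7.81 ± 3.23 to 1.74 ± 1.11 CPM (-2.19 ± 0.51), and Klf4 differed by -1.67 ± 0.35. The groups overlapped for Klf4 and for none of the other 4. These values, too, pool nodes whose shares of the CGNP-like cells differed with treatment, and the part of that shift was not tested.

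Heat-shock chaperones, which protein stress induces, went both ways. Of 9 tested in CGNP-like cells, Hspa5 (0.80) and Dnajb1 (0.65) were higher and Hspa8 (-1.59), Hspd1 (-0.65), Hspe1 (-0.58) and Dnaja1 (-0.52) lower in vehicle tumors than in WT, against 21.1% and 23.2% of all genes. By edgeR 0 of 9 were called with vismodegib, with 1 at an unadjusted p under 0.05, where 3231 of the 12476 genes tested were. Their summed level was 10142 ± 1143, 10205 ± 415 and 9599 ± 993 CPM in WT, vehicle and vismodegib CGNP-like cells, while that of the 10 members was 667 ± 108, 3104 ± 397 and 2253 ± 626 CPM. Of 22 kinases and transcription factors upstream of the members, 6 were higher and 2 lower in vehicle tumors than in WT, a share of higher genes near the 21.1% of all genes and a smaller share of lower genes than the 23.2%. The MAP kinases Mapk14 (1.81 ± 0.26) and Mapk3 (1.54 ± 0.23), the ternary complex factor Elk3 (1.42 ± 0.38), serum response factor Srf (1.14 ± 0.31) and Map2k1 (0.97 ± 0.28) were among those higher, and Atf1 (-0.52) and Atf2 (-0.37) were lower. With vismodegib the ribosomal S6 kinases Rps6ka1 (2.33 ± 0.40) and Rps6ka3 (0.94 ± 0.23) and Mapk9 (0.54 ± 0.16) were higher and Elk3 was lower (-1.86 ± 0.33), 3 and 1 of the 22 against 8.57% and 4.7% of all genes. In microglia-like cells of vehicle tumors, 6 other early-response genes, 5 chaperones and no upstream gene could be tested against WT. Klf6 (1.65 ± 0.34) was higher and Zfp36l1 (-1.27 ± 0.28) and the chaperone Hspa8 (-1.24 ± 0.35) were lower, where 8.77% of all genes were higher and 11.8% lower. With vismodegib edgeR called none of 12, 6 and 4 tested genes of the 3 lists there, and 1, 2 and 1 had an unadjusted p under 0.05, as had 184 of all 1600 genes tested.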

How the data were processed

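UMI counts per gene and cell, 1 table per mouse, were deposited by the authors as unnormalized counts. Per the submitters' processing notes reads were demultiplexed with bcl2fastq (2.18) and aligned with STAR (listed as 5.4b, while the methods give another release), and Seurat (2.3.0) was used later. By the methods, which name Drop-seq Tools (1.13), WT reads were aligned once, to mm10 with the transgenes, and tumor reads first to mm10 and hg19 together to choose mouse barcodes and then again to mm10 with the transgenes. The sources used here do not state whether counting used strand. Jun, Junb, Jund, Atf3 and Dusp1 overlap annotated genes on the other strand, and Dusp1 also on its own.

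Cells needed 500 UMIs and 500 genes, and those more than 5 SD over the median were dropped. WT and tumor cells were clustered separately (scikit-learn 1.9.0, igraph 0.11.9, resolution 0.8), with 83 genes (members and the 3 lists) and the hemoglobin genes held out, and the vascular cells of WT and of the tumors were each clustered once more. No doublet caller was run. Clusters were named for the class with the most fixed markers among the cluster's 10 leading genes, with at least 3 markers detected. The highest mean score over the markers decided ties and clusters with no marker among those genes. The lowest score was 0.206, for the Node B-like tumor cluster led by Gm17322 and Gm16104, which had no marker among them. Holding out hemoglobin, re-clustering vascular cells, the test of Node D-like against Node A-like cells and the oligodendrocyte subsets were chosen after the data had been seen. Counts were summed per mouse and class and tested in edgeR 4.0.16 (R 4.3.3; TMM, filterByExpr, quasi-likelihood test, Benjamini-Hochberg over all genes tested). DESeq2 1.42.0 was an alternative, where an adjusted p of NA stayed NA. Differences between classes used exact permutation (scipy 1.17.1) of log2(CPM + 10), 2-sided. The scripts were tested on simulated data.

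The members and lists were chosen with earlier results of these data known. Named in the text are the 10 members and, per list, up to 5 genes called each way with the largest change in CGNP-like and in microglia-like cells. Likeness used the 5 genes closest to Fos and to Jun with a mean of at least 20 CPM. Table totals were 2310474 to 5952919 UMIs in WT, 4307404 to 17708677 in vehicle and 2601001 to 10922460 in vismodegib samples. Intervals of the tests cover the spread between these mice. Same-numbered vehicle and vismodegib tumors also carry adjacent serial numbers (5 and 4, 6 and 7, 10 and 9, 13 and 12, 15 and 14), and the methods name littermates as injected, but no source used here ties a pair to 1 litter.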

Additional observations from a re-analysis of the deposited data

Results flagged for a closer look

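In 210 groups of 5 mice (10 genes by class and group), 15 had 1 mouse whose gap to the nearest other exceeded Dixon's 95% critical value, where chance flags about 1 group in 20. Fos in vehicle replicate 2 was high in CGNP-like cells, at 544 CPM against 354 for the next tumor, and also in Node A-like (508) and Node B-like cells (597). Atf3 in vismodegib replicate 3 was high in CGNP-like cells, at 22.7 CPM against 6.59, and in Node A-like cells, at 25.1. In Node D-like cells, vismodegib replicate 1 was high for Egr1 (1238 CPM against 523) and Ier2 (479 against 271), vismodegib replicate 2 was low for Jun (393 against 739), and vehicle replicate 3 was high for Fosb (493 against 212). Without vismodegib replicate 1, Egr1 was called lower with vismodegib in Node D-like cells (log2 difference -0.93, edgeR adjusted p = 0.0330).

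Both Atf3 flags rest on few UMIs (50 and 21). The other 6 flags, on 13 to 67 UMIs each, were Dusp1 in CGNP-like cells of WT replicate 3 (39.8 CPM from 42 UMIs), Egr1 in astrocyte-like cells of vehicle replicate 1 (2214 CPM, 67 UMIs), Fosb in oligodendrocyte-like cells of vehicle replicate 3 (768 CPM, 64 UMIs), Jun in microglia-like cells of WT replicate 5 (2479.5 CPM, 30 UMIs), Jund in endothelial-like cells of vismodegib replicate 3 (442 CPM, 16 UMIs) and Jund in vascular fibroblast-like cells of WT replicate 3 (227 CPM, 13 UMIs).

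Barcodes under 500 UMIs, which entered no comparison, also held the members. Their summed level was 468 to 948 CPM in the 5 WT samples. It was above that range in the 6 tumor samples whose low barcodes held at least 30000 UMIs: 2077 CPM in vehicle replicate 1, 1995 in vehicle replicate 5, and 1648, 1160.3, 1337 and 1815 in vismodegib replicates 1, 2, 4 and 5. Whether these barcodes are small cells or free RNA was not tested.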

How the results depend on the processing

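The 9 members called in CGNP-like cells for vehicle against WT, and the 28 called of 29 tested gene and node pairs, stayed within 1.5 times that count under the filter, tool, depth and leave-one-out alternatives run. Every edgeR fit used TMM. For vismodegib against vehicle the 0 members called in CGNP-like cells became 2 without the filter on low counts, 2 with DESeq2, 2 with the side of the tumors as a term, 1 with cells thinned to 500 UMIs and 0 to 2 with 1 mouse left out (2 without vismodegib replicate 1). The 3 gene and node pairs called became 9 without the filter and 5 with the side as a term, and ranged from 0 (without any 1 of vehicle replicates 1, 2 and 4 or vismodegib replicates 4 and 5) to 6 (without vismodegib replicate 1) with 1 mouse left out. In other classes the 3 called pairs became 5 without the filter and 1 with thinned cells. For vehicle against WT in these classes 17 became 7 with thinned cells, where 10 and not 28 pairs could be tested and no endothelial-like member was. The 29 pairs of class against CGNP-like cells became 18 with thinned cells. Small sign changes, none past the threshold, occurred with 1 mouse left out for Junb with vismodegib in CGNP-like cells (-0.14, with a range of -0.35 to 0.076 and above 0 without vehicle replicate 2 or vismodegib replicate 2) and for Jund (0.07, with a range of -0.058 to 0.22 and below 0 without vehicle replicate 1 or 5). With a replicate block the vismodegib count in CGNP-like cells was 1, and no other count moved. Same-numbered vehicle and vismodegib tumors deviated with correlations of -0.34 to 0.42, and 1 of 5 numbers had its own partner as the closest, so the data did not show that the numbers pair the tumors, although their serial numbers are adjacent. Depth limits the rarer classes, some with 5 to 10 cells in a mouse, in which members with few UMIs could not be tested.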
